A study of Mus musculus with 18 samples.

Results

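Chemokines are small secreted proteins that call leukocytes to a tissue. The 9 described here, Cxcl1, Cxcl2, Cxcl9, Cxcl10, Cxcl12, Cxcl14, Cxcl16, Ccl2 and Ccl20, were chosen by name as chemokines made in skin. Each had exactly 1 row on the arrays, so they make up 9 of the 23521 rows that name a single gene, which stand for 22180 genes. Earlier results of these data were known when the members were chosen. Comparisons of members with all rows or with other ligands below are thus descriptive and no independent test. The arrays measured RNA of epidermal sheets, the cell layer above the dermis, from the back skin of female mice on a mixed B6;129 background. KO mice (AhR-/-, line B6.129-AhRtm1Bra/J) lacked the aryl hydrocarbon receptor (AhR), a ligand-activated transcription factor, in every cell of the body and not in keratinocytes alone, and WT mice were their AhR+/+ littermates. In both genotypes shaved skin was taken without stripping (0 h) or 6 h or 24 h after tape stripping, in which adhesive film applied 5 times pulls off the outer cornified layers. There were 18 arrays, 3 in each of these 6 groups.

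The values are log values, taken as base 2, and each row had been centred on its median across all 18 arrays. A value of 0 is thus the gene's own middle level, and the levels of different genes cannot be compared. The same centring leaves no way to see whether a cell type's defining markers are present or at background, keratinocyte markers included. Ahr itself lay lower in the KO arrays than in the WT arrays at each time without overlap, with means of -0.034 against 0.29 at 0 h, -0.68 against 0.43 at 6 h and -0.66 against 0.041 at 24 h. The sources used here do not say which part of the gene its probes cover. Each sample also carries a 4-digit number of unstated meaning. It starts with 2 for KO replicate 1 and WT replicates 2 and 3 at 0 h and for replicates 2 and 3 of both genotypes at 6 h, and with 3 for all other arrays, every 24 h array among them. Among numbers starting with 2, KO at 0 h is thus a single array, and among those starting with 3, WT at 0 h and both genotypes at 6 h are. Values within a number class below that involve such a group take its spread from the other groups, so they show sizes, and their adjusted p rests on 1 array on that side.

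Chemokines bind receptors on the surface of leukocytes and set up gradients along which the cells move. In skin, keratinocytes are a known source: injury and the cytokines interleukin-1, tumour necrosis factor and interleukin-17 switch on the neutrophil attractants Cxcl1 and Cxcl2 through the transcription factor NF-kB, and interferons switch on Cxcl9 and Cxcl10. Cxcl12 and Cxcl14 are known as constitutive chemokines, and Cxcl14 is abundant in resting epidermis. Cxcl16 attracts T cells, Ccl2 monocytes, and Ccl20 dendritic cells and T cells.

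The promoters of 5 members are shown because these members carry the results below, 4 with matches to the NF-kB binding motif in capitals and Cxcl14, which has none, with matches to the core motif bound by AhR. RefSeq's promoter table (build GRCm38.p6), which runs from 250 bases before to 50 bases after a gene's start, held 7 of the 9 members, and the 250 bases before the start are printed 5′ to 3′ on the gene's strand. Cxcl1 and Cxcl2 are next to each other on chromosome 5, with 0 protein-coding genes between them. Cxcl9 and Cxcl10 are also on chromosome 5, with 1 coding gene, Art3, between them, and Cxcl14 is on chromosome 13. The windows are chr5:90890995-90891244 (plus strand) for Cxcl1, chr5:90903649-90903898 (plus strand) for Cxcl2, chr5:92328080-92328329 (minus strand) for Cxcl9, chr5:92348890-92349139 (minus strand) for Cxcl10 and chr13:56296552-56296801 (minus strand) for Cxcl14.
Cxcl1: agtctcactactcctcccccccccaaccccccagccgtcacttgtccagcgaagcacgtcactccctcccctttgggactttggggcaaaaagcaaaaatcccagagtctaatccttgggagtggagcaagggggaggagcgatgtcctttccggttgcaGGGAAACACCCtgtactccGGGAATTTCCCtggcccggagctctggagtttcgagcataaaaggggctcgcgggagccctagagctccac
Cxcl2: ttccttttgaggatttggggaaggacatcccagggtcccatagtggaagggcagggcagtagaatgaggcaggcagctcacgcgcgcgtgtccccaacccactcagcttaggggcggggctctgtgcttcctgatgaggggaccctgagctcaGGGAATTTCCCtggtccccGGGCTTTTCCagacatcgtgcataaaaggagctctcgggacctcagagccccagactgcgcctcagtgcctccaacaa
Cxcl9: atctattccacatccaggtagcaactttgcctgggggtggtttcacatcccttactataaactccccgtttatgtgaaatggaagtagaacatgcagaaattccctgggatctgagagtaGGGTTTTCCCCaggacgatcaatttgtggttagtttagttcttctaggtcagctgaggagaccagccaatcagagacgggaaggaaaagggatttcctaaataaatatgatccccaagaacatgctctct
Cxcl10: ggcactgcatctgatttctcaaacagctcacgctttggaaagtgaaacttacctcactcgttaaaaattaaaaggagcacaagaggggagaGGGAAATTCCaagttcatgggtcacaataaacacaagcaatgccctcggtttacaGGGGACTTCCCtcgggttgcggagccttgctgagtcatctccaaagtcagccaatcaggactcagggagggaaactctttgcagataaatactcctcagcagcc
Cxcl14: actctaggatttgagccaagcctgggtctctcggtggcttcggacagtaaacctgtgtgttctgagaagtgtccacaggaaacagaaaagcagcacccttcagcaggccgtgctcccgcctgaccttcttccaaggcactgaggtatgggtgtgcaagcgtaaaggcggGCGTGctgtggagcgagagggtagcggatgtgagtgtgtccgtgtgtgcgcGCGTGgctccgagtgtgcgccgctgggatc

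The NF-kB motif was searched as GGGNNNNNCC on both strands, where N is any base, and overlapping matches were joined in the capitals. It was found in 6 of the 7 members' windows, all but that of Cxcl14, and in 50.8% of the 32851 promoter windows of the table, so that a match alone is common. The exact string GGGAATTTCC, found in 29 of 32851 windows (0.0883%), stands from -71 to -62 before the start of Cxcl1 and from -97 to -88 before that of Cxcl2. Such rarity is usual for a fixed string of this length. The other strings matched in the members stood in 0.0731% to 0.186% of windows, save 1.31% for that of Cxcl12. The AhR core motif GCGTG, in capitals for Cxcl14 at -81 and at -30, was found on either strand in 4 of the 7 windows (Cxcl2, Cxcl10, Cxcl14 and Ccl20) and in 32.4% of all windows. The interferon motif GAAANNGAAA stood in Cxcl10 and Cxcl14 (3.44% of all windows) and the AP-1 motif TGANTCA in Cxcl9 and Cxcl10 (7.81%). These matches describe the letters in the windows and say nothing of binding.

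Among the 9 members, Cxcl1 varied most over the 18 arrays. Its standard deviation (SD) of 0.43 log2 was above that of 98.6% of rows. Cxcl9 (SD 0.39), Cxcl14 (0.39), Cxcl2 (0.36), Ccl2 (0.35) and Cxcl10 (0.35) were also above at least 96.3% of rows. Ccl20 (SD 0.24) lay above 84.4%, Cxcl12 (0.20) above 74.0% and Cxcl16 (0.17) above 65.0% of rows. The plot of every array shows where each member was high or low.

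**Figure D1:**
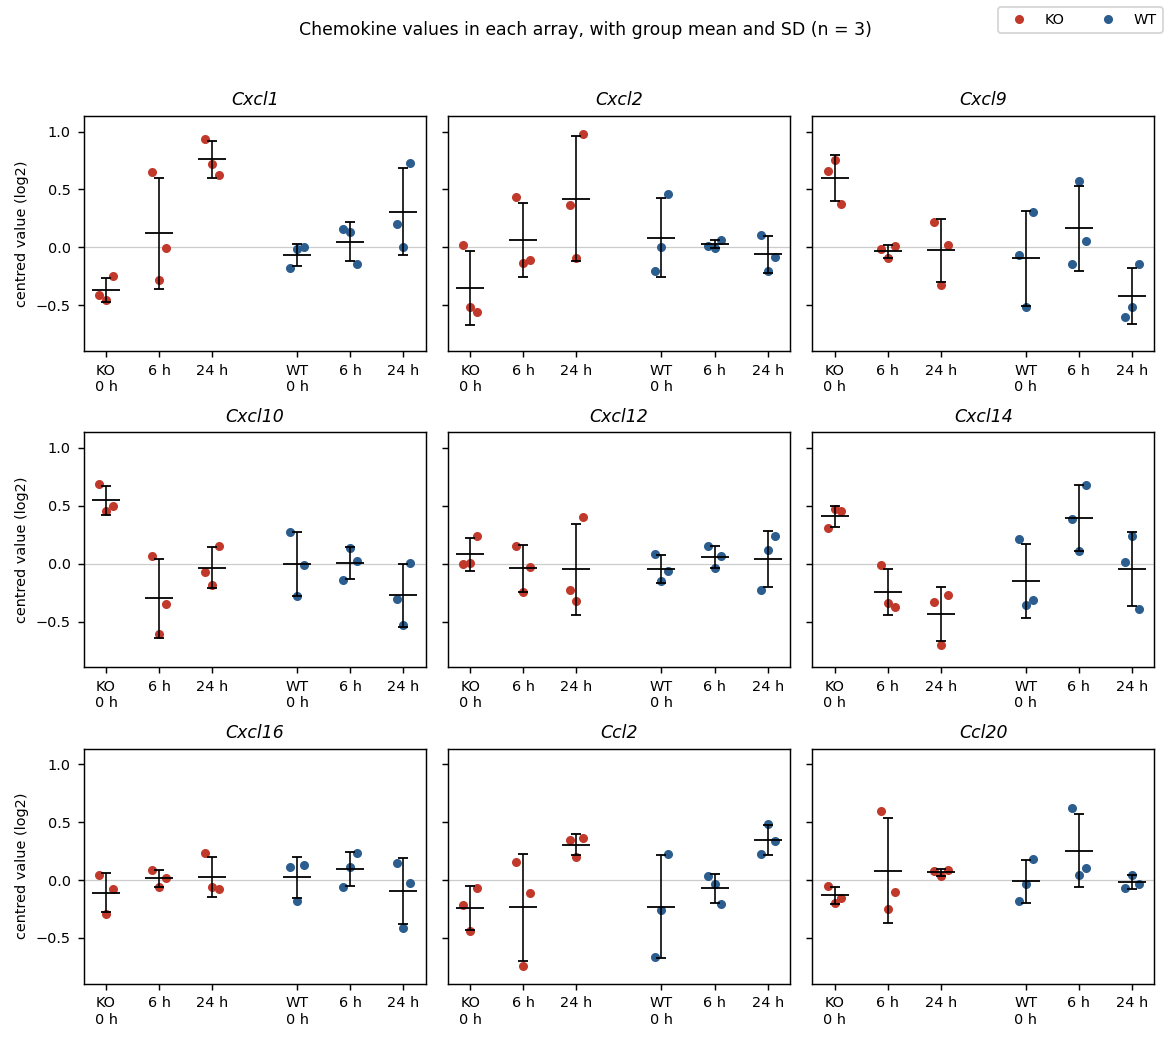
Centred log2 value (vertical axis) of the 9 chemokines in each of the 18 arrays, as points, for KO and WT at 0, 6 and 24 h, with black marks for the group mean and SD (n = 3). The 3 KO arrays at 24 h, 1 WT array at 24 h and 1 KO array at 6 h had the 5 highest Cxcl1 values, and Cxcl9, Cxcl10 and Cxcl14 lay high in the KO arrays at 0 h.

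After tape stripping 3 members passed the test against 0 h in KO epidermis and none did in WT epidermis, while no test of the difference between the genotypes' changes passed for any member. At 24 h Cxcl1 rose 2.19-fold and Cxcl14 fell 1.80-fold in KO, and at 6 h Cxcl10 fell 1.80-fold in KO. The tests were limma's moderated 2-sided tests over all 23521 rows, and a row passed at a Benjamini-Hochberg adjusted p under 0.05. In KO at 24 h against 0 h, 2 of 9 members passed, beside 9.56% of all rows (3.09% higher and 6.47% lower). In KO at 6 h against 0 h, 1 of 9 passed, beside 4.98% of all rows (1.57% higher and 3.41% lower). In WT the shares of all rows that passed were 0.0298% at 24 h and 0% at 6 h, with 0 members in each. At an unadjusted p under 0.05 there were 1 of 9 members and 2946 rows (12.5%) at 24 h. At 6 h there were 1 member and 1086 rows (4.62%). RNA of whole sheets cannot tell a change in the number of cells of a type from a change in RNA per cell. The tests of that difference are given further on.

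Cxcl1 and Cxcl2 bind Cxcr2 and attract neutrophils. Cxcl1 stood at -0.41, -0.45 and -0.25 in the 3 arrays of unstripped KO skin, at 0.65, -0.28 and -0.0042 at 6 h, and at 0.94, 0.72 and 0.63 at 24 h. All 3 KO arrays at 24 h lay above all 3 at 0 h, and the 6 h arrays spread over most of the distance. The 24 h rise in KO was 1.13 log2 (SE 0.204, 95% interval 0.70 to 1.57, adjusted p = 0.00444). At 6 h the difference from 0 h was 0.49 (0.056 to 0.93, adjusted p = 0.182), with 0.26 among arrays whose numbers start with 2 and 1.003 among those starting with 3. Among the arrays whose numbers start with 3, the 24 h rise was 1.11 (adjusted p = 0.0137).

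In WT, Cxcl1 stood at -0.18, -0.018 and 0.00025 at 0 h, at 0.16, 0.13 and -0.14 at 6 h, and at 0.20, -0.00025 and 0.72 at 24 h. WT replicate 3 at 24 h lay within the range of the KO arrays at that time, and the lowest WT array at 24 h met the highest of the 0 h arrays. The WT change at 24 h was 0.37 (-0.062 to 0.81, adjusted p = 0.488), an interval that holds both 0 and values above 0.7.

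Cxcl2 gave 0.022, -0.52 and -0.56 in KO at 0 h, 0.43, -0.14 and -0.11 at 6 h, and then 0.37, -0.091 and 0.98 at 24 h. Its 24 h difference in KO, 0.77 (SE 0.243, 0.25 to 1.29), missed the threshold (adjusted p = 0.0596), and 1 array of the 24 h group lay within the range of the 0 h group. It passed without KO replicate 2 at 24 h (1.03, adjusted p = 0.0207) and without KO replicate 1 at 0 h (0.96, adjusted p = 0.0373). WT arrays gave Cxcl2 values of -0.20, 0.0021 and 0.46 at 0 h, 0.015, -0.0021 and 0.065 at 6 h, and then 0.11, -0.20 and -0.084 at 24 h, with no shift beyond their spread (-0.15 at 24 h, -0.66 to 0.37).

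Markers of neutrophils, the cells that Cxcl1 and Cxcl2 attract, lay higher at 24 h than at 0 h in KO for 9 of 9 genes, with a median difference of 0.15, beside 0.024 over all rows. In WT 8 of 9 did, with a median of 0.031 beside 0.012. Over all rows 59.0% lay higher in KO and 54.9% in WT. The mean of the 9 neutrophil markers ran from 0.037 to 0.14 in the KO arrays at 24 h, against -0.063 to -0.021 at 0 h, without overlap. In WT it ran from -0.022 to 0.053 at 24 h, against -0.057 to -0.017 at 0 h. In KO 1 of the 9 markers, Ngp, passed at 24 h (0.28, adjusted p = 0.0289), beside 9.56% of all rows (3.09% higher). Endothelium markers moved the same way in KO, with 7 of 7 higher at 24 h and a median difference of 0.12. Their mean ran from 0.046 to 0.096 at 24 h, against -0.062 to -0.019 at 0 h, also without overlap, though none passed. The part of neutrophils in the Cxcl1 result was not tested.

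Cxcl9 and Cxcl10 are interferon-inducible and share the receptor Cxcr3 of activated T cells. Cxcl10 stood at 0.69, 0.45 and 0.50 in KO at 0 h, at 0.063, -0.61 and -0.35 at 6 h, and at -0.069, -0.19 and 0.16 at 24 h. The KO arrays at 0 h were the highest 3 of all 18. Cxcl10 fell by 0.85 log2 at 6 h (SE 0.176, 95% interval -1.22 to -0.47, adjusted p = 0.0168). The call rests on single arrays. It was lost without KO replicate 2 or 3 at 0 h (adjusted p = 0.058 and 0.0556) and without KO replicate 2 or 3 at 6 h (adjusted p = 0.059 and 0.0526). It was lost with the groups compared alone (adjusted p = 0.0564) and within each number class, where the change was -1.17 among numbers starting with 2 (adjusted p = 0.0996) and -0.41 among those starting with 3 (adjusted p = 0.392). In each class 1 of the 2 KO groups is a single array.

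At 24 h the Cxcl10 difference from 0 h in KO was -0.58 (-0.96 to -0.20) and just missed the threshold (adjusted p = 0.0509), although the groups did not overlap. It passed under 6 of 16 alternatives. WT arrays gave 0.27, -0.28 and -0.0096 at 0 h, -0.14, 0.13 and 0.023 at 6 h, and then -0.30, -0.53 and 0.0096 at 24 h. WT arrays changed by 0.0094 at 6 h (-0.37 to 0.38), and by -0.27 as a difference at 24 h (-0.64 to 0.11).

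Cxcl9 was likewise highest at 0 h in KO, with 0.66, 0.76 and 0.38 at 0 h, -0.014, -0.095 and 0.014 at 6 h, and then 0.22, -0.32 and 0.020 at 24 h. Neither later group overlapped the 0 h group. Neither difference passed, that at 6 h being -0.63 (adjusted p = 0.0995) and that at 24 h -0.62 (adjusted p = 0.0797). WT arrays held -0.070, -0.51 and 0.31 at 0 h, -0.14, 0.57 and 0.059 at 6 h, and then -0.60, -0.51 and -0.14 at 24 h, and both later groups overlapped the 0 h group. The WT arrays at 24 h all lay below those at 6 h, by a narrow margin. Over the 18 arrays Cxcl9 and Cxcl10 were the closest pair among the members for which likeness was measured, with a root mean square difference of 0.26 log2.

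Cxcl14 attracts monocytes and dendritic cell precursors and is made by resting keratinocytes. It stood at 0.31, 0.47 and 0.45 in KO at 0 h, at -0.013, -0.34 and -0.37 at 6 h, and at -0.33, -0.71 and -0.27 at 24 h. Both later KO groups lay wholly below the 0 h group. Cxcl14 fell by 0.85 log2 at 24 h in KO (SE 0.19, -1.25 to -0.44, adjusted p = 0.013), and the change was -0.90 among the arrays with numbers starting with 3 (adjusted p = 0.0231). Without KO replicate 2 at 24 h, the lowest array, the change was -0.71 and the call was lost (adjusted p = 0.0538). The 6 h difference of -0.65 did not pass (adjusted p = 0.0621).

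In WT, Cxcl14 gave 0.22, -0.36 and -0.31 at 0 h, 0.39, 0.11 and 0.68 at 6 h, and then 0.013, 0.24 and -0.39 at 24 h. The WT group mean was thus highest at 6 h, with overlap between groups, whereas in KO it was highest at 0 h. The WT difference was 0.54 at 6 h (0.14 to 0.95, unadjusted p = 0.0122), with an adjusted p that rounds to 1, and 0.10 at 24 h (-0.30 to 0.51).

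Ccl2, which binds Ccr2 and attracts monocytes, stood at -0.22, -0.44 and -0.068 in KO and at -0.66, -0.25 and 0.23 in WT at 0 h. The 6 h arrays held 0.15, -0.74 and -0.11 in KO and 0.034, -0.034 and -0.21 in WT, overlapping the 0 h arrays in both genotypes. At 24 h Ccl2 stood at 0.35, 0.20 and 0.37 in KO and at 0.23, 0.48 and 0.34 in WT. The 24 h difference from 0 h was 0.55 in KO (adjusted p = 0.129) and 0.58 in WT (adjusted p = 0.26), and neither passed. Among the arrays whose numbers start with 3 both passed, with 0.56 in KO (adjusted p = 0.0273) and 1.01 in WT (adjusted p = 0.0343). The WT value there is set against a single 0 h array, the lowest of the WT arrays. Over all arrays the difference between the KO and WT changes of Ccl2 at 24 h was -0.034 (-0.68 to 0.61), and it was -0.45 among numbers starting with 3.

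A contrast chosen after the data were seen averaged the 24 h change over KO and WT. In it 3 of 9 members passed, beside 10.8% of all rows. Cxcl1 rose by 0.75 (SE 0.144, 0.45 to 1.06, adjusted p = 0.00435), Ccl2 rose by 0.56 (SE 0.15, 0.24 to 0.88, adjusted p = 0.0261) and Cxcl10 fell by 0.42 (SE 0.124, -0.69 to -0.16, adjusted p = 0.0407). The Ccl2 call was lost with any of 5 arrays left out, KO replicate 2 or WT replicate 1 at 0 h, KO replicate 1 or 3 at 24 h or WT replicate 2 at 24 h, with differences of 0.46 to 0.55 and adjusted p of 0.0533 to 0.0661, and with the label's number as a block (adjusted p = 0.0557). The Cxcl10 call was lost with any of 9 arrays left out (adjusted p = 0.0565 to 0.108): all 3 KO arrays and WT replicates 1 and 3 at 0 h, and replicates 1 and 2 of both genotypes at 24 h. It was also lost with a repeated quantile normalization (adjusted p = 0.063) and with all rows tested (adjusted p = 0.0517). Monocyte and macrophage markers (9 of 9 measured) had a mean of -0.12 to 0.29 in KO and -0.057 to 0.012 in WT at 24 h, against -0.22 to 0.033 in KO and -0.074 to 0.18 in WT at 0 h. Of these markers 7 of 9 lay higher in KO at 24 h than at 0 h (median 0.13), beside 59.0% of all rows. In WT 4 of 9 did (median -0.059), beside 54.9%. Cd14, a co-receptor for bacterial lipopolysaccharide, was the 1 of 9 markers that passed at 24 h in KO (0.74, adjusted p = 0.0329). Beside it 9.56% of all rows passed there (3.09% higher). The part of monocytes and macrophages in the Ccl2 values was not tested.

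Ccl20 binds Ccr6 on dendritic cells and on T cells that make interleukin-17. At 0 h it stood at -0.053, -0.20 and -0.15 in KO and -0.18, -0.035 and 0.18 in WT. At 6 h it gave 0.60, -0.25 and -0.10 in KO and 0.62, 0.042 and 0.10 in WT, with 1 high array in each genotype. At 24 h it stood at 0.074, 0.035 and 0.088 in KO and -0.072, 0.047 and -0.036 in WT. The 2 high arrays, replicate 1 of each genotype at 6 h, are also the only 6 h arrays whose numbers start with 3. Over all 18 arrays no contrast of Ccl20 passed, and its 6 h differences were 0.21 in KO (-0.17 to 0.60) and 0.27 in WT (-0.12 to 0.65). Among the arrays whose numbers start with 3 the 6 h difference was 0.77 in KO (adjusted p = 0.00836) and 0.80 in WT (adjusted p = 0.0529), with 1 array per genotype at 6 h and 1 WT array at 0 h. Among numbers starting with 2 it was -0.12 in KO and 0.00061 in WT. The 24 h difference in KO was 0.24 among numbers starting with 3 (adjusted p = 0.046).

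Cxcl12, the ligand of Cxcr4, and Cxcl16, a membrane-bound ligand of Cxcr6 that is shed by Adam10, had the narrowest group means, with ranges over the 6 groups of 0.13 and 0.20 log2. Cxcl12 ran from -0.32 to 0.40 and Cxcl16 from -0.41 to 0.23 over single arrays, wider than those ranges. Their 24 h differences were -0.13 (-0.49 to 0.23) for Cxcl12 and 0.14 (-0.16 to 0.43) for Cxcl16 in KO, and 0.086 (-0.27 to 0.44) for Cxcl12 and -0.12 (-0.41 to 0.18) for Cxcl16 in WT. No contrast of these genes passed, and no interval named here reaches beyond 0.5 log2 in either direction.

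The groups of arrays did not overlap for 6 of 9 members between 24 h and 0 h in KO, beside 29.5% of all rows. These were Cxcl1, Ccl2 and Ccl20, higher at 24 h, and Cxcl9, Cxcl10 and Cxcl14, lower. For 6 h and 0 h in KO there were 3 of 9 (Cxcl9, Cxcl10 and Cxcl14, lower at 6 h), beside 24.5% of rows. In WT there were 0 of 9 at 24 h, beside 17.7% of rows, and 0 of 9 at 6 h, beside 9.26%. The median member difference at 24 h was 0.14 in KO and -0.0080 in WT, beside 0.024 and 0.012 over all rows. Of the 9 members 5 lay above 0 in KO and 4 in WT, beside 59.0% and 54.9% of all rows. Between 24 h and 6 h no member passed in either genotype, beside 1.24% of rows in KO and 0% in WT. The unadjusted p was under 0.05 for 2 members in KO (Cxcl1 at 0.64 and Ccl2 at 0.54), beside 13.8% of rows, and for 2 in WT (Cxcl9 at -0.58 and Cxcl14 at -0.44), beside 7.79%. Among numbers starting with 3, with 1 array at 6 h, these differences were 0.11 for Cxcl1 and 0.15 for Ccl2 in KO, and -0.28 for Cxcl9 and -0.44 for Cxcl14 in WT. The 24 h and 6 h groups did not overlap for 1 of 9 members in KO (Ccl2, higher at 24 h), beside 17% of rows, and for 2 of 9 in WT (Ccl2, higher, and Cxcl9, lower), beside 12.9%.

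**Figure D2:**
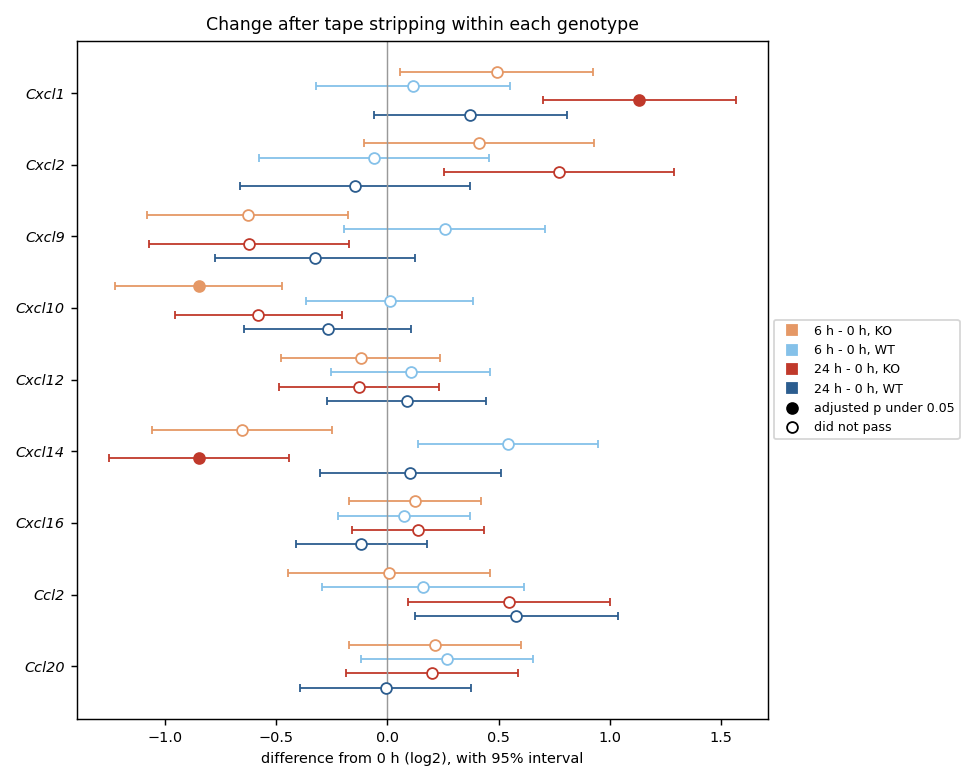
Change from 0 h (horizontal axis, log2) of each chemokine at 6 h and 24 h in KO and WT, with 95% intervals from limma. Filled points passed at an adjusted p under 0.05, which were Cxcl10 at 6 h and Cxcl1 and Cxcl14 at 24 h, each in KO.

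The direct comparison of KO with WT asks whether loss of AhR shifted the chemokines at a given time. No member passed at 0, 6 or 24 h, beside 0.0978%, 2.18% and 0.017% of all rows, nor averaged over the 3 times, beside 0.374%. At an unadjusted p under 0.05, 3 of 9 members and 1994 rows (8.48%) stood at 0 h, and 1 member and 3713 rows (15.8%) at 6 h. At 24 h 1 member and 1579 rows (6.71%) did, and in the average 1 member and 2884 rows (12.3%). An exact permutation test on 1 gene was not made, because with groups of 3 its smallest 2-sided p is 0.1.

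The largest KO minus WT difference of a member at any of the 3 times was that of Cxcl9 at 0 h. The groups did not overlap for 4 of 9 members at 0 h, beside 13.7% of all rows: Cxcl9, Cxcl10 and Cxcl14 were higher in KO and Cxcl1 lower. The difference was 0.69 for Cxcl9 (0.24 to 1.14, adjusted p = 0.307), 0.55 for Cxcl10 (0.18 to 0.93, adjusted p = 0.338) and 0.56 for Cxcl14 (0.16 to 0.97, adjusted p = 0.382). Cxcl1 differed by -0.30 (-0.74 to 0.13). Cxcl2, at -0.44 (-0.95 to 0.082), overlapped. Within the number classes, the 0 h difference among numbers starting with 2 and with 3 was 0.76 and 0.64 for Cxcl9, 0.83 and 0.20 for Cxcl10 and 0.64 and 0.25 for Cxcl14. The 3 members that were higher in unstripped KO skin are those whose KO values were lower at 6 h and 24 h, and both comparisons use the same KO arrays at 0 h. Cxcl1, lower in unstripped KO skin, rose in KO at 24 h, and its 2 comparisons share those arrays too.

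At 6 h the groups separated for 1 of 9 members, Cxcl14, beside 17.7% of rows. The KO minus WT difference of Cxcl14 was -0.63 (-1.04 to -0.23, adjusted p = 0.0987), with -0.75 among numbers starting with 2 and -0.40 among those starting with 3. At 24 h no member separated, beside 12.9% of rows. The KO minus WT difference at 24 h was 0.46 for Cxcl1 (0.020 to 0.89, adjusted p = 0.725), 0.48 for Cxcl2 (-0.037 to 0.999), 0.39 for Cxcl9 (-0.058 to 0.84) and -0.39 for Cxcl14 (-0.79 to 0.017).

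**Figure D3:**
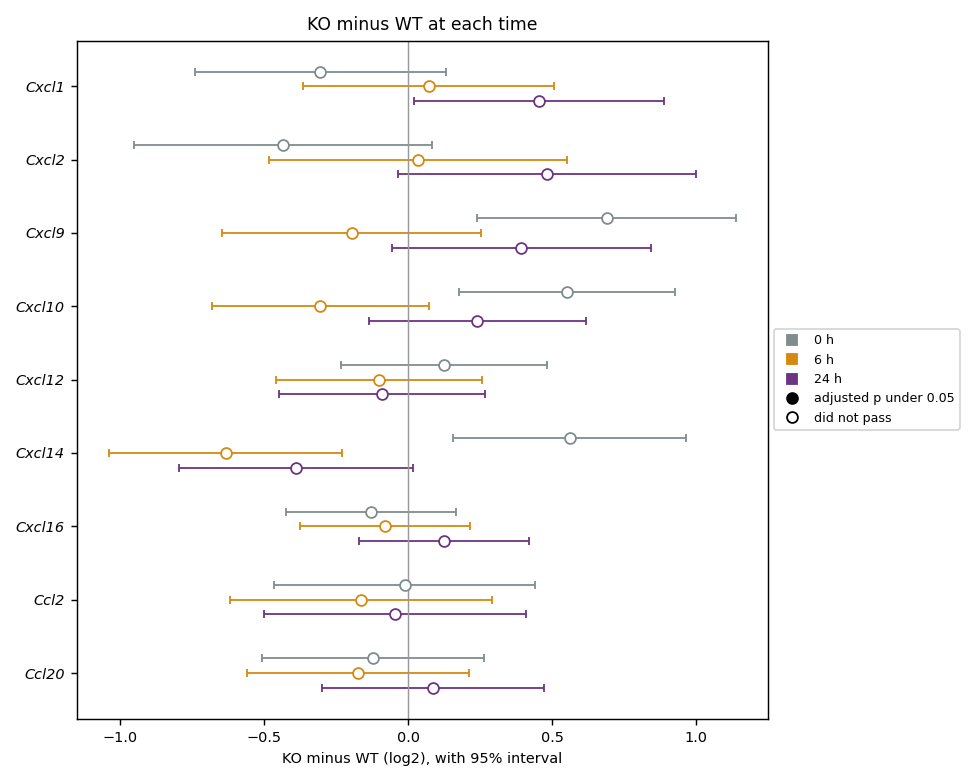
KO minus WT difference (horizontal axis, log2) of each chemokine at 0, 6 and 24 h, with 95% intervals from limma. No point is filled, since none passed at an adjusted p under 0.05; Cxcl9, Cxcl10 and Cxcl14 lie to the right at 0 h and Cxcl14 to the left at 6 h.

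Other cells of the sheet differed between the genotypes beside these values. The mean of the epidermal T cell markers (7 of 8 measured) ran from -1.06 to -0.25 in KO against 0.32 to 0.74 in WT at 0 h. At 6 h it ran from -0.44 to -0.11 in KO against 0.52 to 0.71 in WT, and at 24 h from -0.93 to -0.73 against 0.011 to 0.60. Of these 7 markers 2 (Trgv5 and Cd3e), 3 (Trgv5, Cd3e and Cd7) and 1 (Trgv5) passed as lower in KO at 0, 6 and 24 h. None passed as higher, but 0, 2 and 1 of the 7 lay higher in KO at these times. Thy1 was among them at 6 h, with a mean of 0.81 in KO against 0.084 in WT. Langerhans cell markers (6 of 7 measured) had means from -0.71 to -0.17 in KO against 0.049 to 0.38 in WT at 0 h, with overlap at 6 h and 24 h. Within KO they ran from 0.013 to 0.20 at 6 h and from -0.34 to -0.072 at 24 h. Of these 6 markers 1 passed as lower in KO than in WT at 0 h, 1 at 6 h and 0 at 24 h. At these times 0, 4 and 2 of the 6 lay higher in KO. Keratinocyte markers (6 of 7 measured) ran from -0.12 to -0.048 in KO against 0.058 to 0.11 in WT at 0 h and from -0.11 to -0.074 against 0.031 to 0.10 at 6 h, with overlap at 24 h. Of these Krt1, a keratin of differentiating keratinocytes, passed as lower in KO at 0 h (-0.67, adjusted p = 0.0212). At that time 2 of the 6 lay higher in KO, Trp63 among them with a mean of 0.19 against -0.029 in WT. Between 24 h and 0 h in KO 2 of the 6 passed as higher at 24 h and 1 as lower, beside 3.09% and 6.47% of all rows. Marker means of dermal fibroblasts, endothelium and mast cells stayed between -0.14 and 0.23 on all arrays. The part of these cells in the chemokine values was not tested.

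Whether KO and WT answered tape stripping differently was tested as the difference between their changes. For the 6 h response no member passed, beside 0.731% of all rows, and for the 24 h response none did, beside 0% (smallest adjusted p over all rows 0.102). At an unadjusted p under 0.05 there were 3 of 9 members and 3080 rows (13.1%) for the 6 h response. For the 24 h response there were 3 members and 2165 rows (9.2%). Cxcl14 came nearest: its change at 6 h was -0.65 in KO and 0.54 in WT, opposite in sign, and the difference between them was -1.19 (SE 0.269, -1.77 to -0.62, adjusted p = 0.0553). It passed without WT replicate 1 at 0 h (-1.38, adjusted p = 0.0164) and without KO replicate 1 at 6 h (-1.31, adjusted p = 0.0497). Among numbers starting with 2 it was -1.39 (adjusted p = 0.072) and among those starting with 3 -0.65 (adjusted p = 0.812).

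Cxcl10 and Cxcl9 had 6 h responses that differed by -0.86 (adjusted p = 0.123) and -0.88 (adjusted p = 0.185). For Cxcl10 the value was -1.39 among numbers starting with 2, where it passed (adjusted p = 0.0474) with 1 KO array at 0 h, and 0.0017 among those starting with 3. At 24 h the responses differed by -0.95 for Cxcl14 (adjusted p = 0.275), 0.92 for Cxcl2 (adjusted p = 0.409) and 0.76 for Cxcl1 (0.14 to 1.37, adjusted p = 0.421). The Cxcl1 and Cxcl14 changes that passed in KO are thus not shown to differ from those in WT.

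Of 29 other chemokine ligands, 27 were measured, and Ccl19 and Ccl21a were not analysed here. In KO at 24 h against 0 h, 1 of the 27 rose and 0 fell, beside 9.56% of all rows, and their differences ran from -0.19 to 0.44 with a median of 0.047. That ligand was Ccl9, a Ccr1 ligand of mice, at 0.17, -0.0083 and 0.17 in KO at 24 h against -0.13, -0.24 and -0.033 at 0 h. It rose by 0.24 (SE 0.072, adjusted p = 0.0461), with loss of the call without KO replicate 1 or 2 at 0 h (adjusted p = 0.0888 and 0.184) or replicate 1 or 3 at 24 h (adjusted p = 0.149 and 0.142). In WT at 24 h none passed, and the range was -0.43 to 0.23 with a median of 0.043. Every other comparison of the 27 gave none either, except the change averaged over the genotypes, where Ccl9 passed (0.21, adjusted p = 0.0147).

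**Figure D4:**
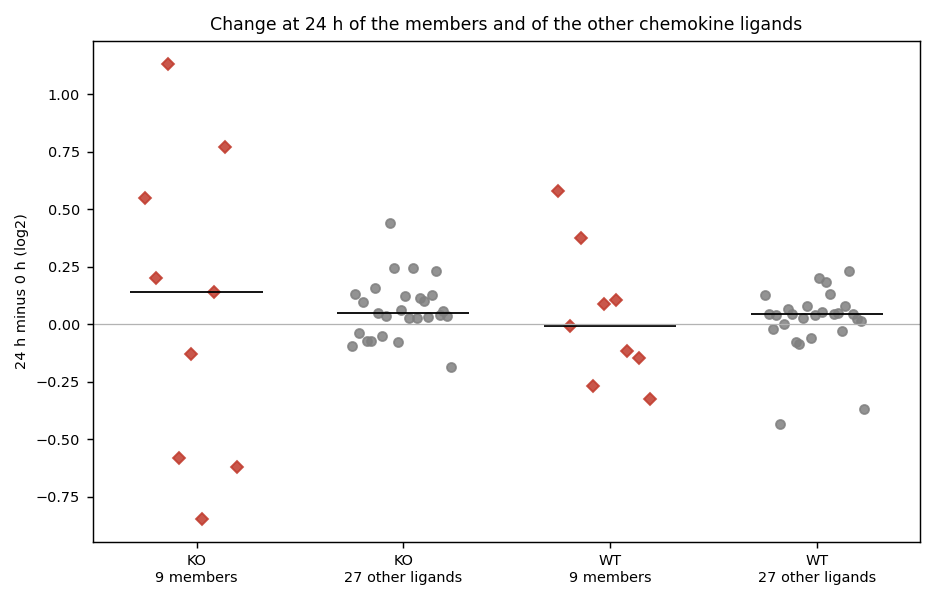
Difference between 24 h and 0 h (vertical axis, log2) of the 9 members (diamonds) and of 27 other chemokine ligands (circles) in KO and in WT, with a black line at the median. In KO the members reach from -0.85 (Cxcl14) to 1.13 (Cxcl1), and the other ligands from -0.19 to 0.44.

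Of 23 chemokine receptors 22 were measured. Ccr4, the receptor of Ccl17 and Ccl22 on skin-homing T cells, passed in 2 comparisons. It stood at -0.24, -0.54 and -0.21 in KO at 6 h against 0.52, 0.10 and 0.14 in WT (difference -0.58, SE 0.133, adjusted p = 0.0378). At 24 h it stood at -0.32, -0.53 and -0.31 in KO against -0.011, 0.17 and 0.052 in KO at 0 h, and fell by 0.45 (adjusted p = 0.0443). At 6 h the mean of the T cell markers given above was lower in KO than in WT. Within KO that mean ran from -0.93 to -0.73 at 24 h, inside its range at 0 h of -1.06 to -0.25. Of the 7 markers 1 passed as lower at 24 h than at 0 h in KO, beside 6.47% of all rows, and 2 lay higher. At 0 h, where the marker mean was also lower in KO, Ccr4 had means of 0.070 in KO and 0.053 in WT. The part of T cells in the Ccr4 values was not tested. Cxcr1, a receptor of neutrophils, rose by 0.30 in KO at 6 h (adjusted p = 0.0349) and by 0.18 at 24 h averaged over the genotypes (adjusted p = 0.0419). No other of the 22 receptors passed, Cxcr2, Cxcr3 and Ccr2 included. Ccr4 and Cxcr1 were thus each 1 of 22 in their comparisons. Over all rows 2.18% passed between KO and WT at 6 h. Against 0 h in KO 4.98% passed at 6 h and 9.56% at 24 h, and 10.8% passed in the average over the genotypes.

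Among 24 inducers and feedback genes of the chemokines, 23 were measured, and Nfkb1 was not analysed here. Il1b, the cytokine interleukin-1 beta, stood at 1.59, 1.09 and 1.48 in KO at 6 h against -0.23, -0.62 and -0.40 in WT, without overlap. It was 3.49-fold higher in KO at that time (1.80 log2, SE 0.402, adjusted p = 0.0346). Averaged over the 3 times it was 1.24 log2 higher (adjusted p = 0.0299), although at 0 h it was not higher in KO (-0.11) and the 24 h difference of 2.04 did not pass (adjusted p = 0.197). Within KO it rose at 6 h by 1.54 log2 (adjusted p = 0.0406) above 0.56, 0.0041 and -1.02 at 0 h. That rise was 0.72 among numbers starting with 2 and 2.10 among those starting with 3, and 1.11 without KO replicate 3 at 0 h (adjusted p = 0.172). Il1r1, the signalling receptor of interleukin-1, fell in KO at 24 h by 0.66 (adjusted p = 0.0118) and over both genotypes by 0.38 (adjusted p = 0.03). The other 21 did not pass in any comparison, Tnf, Il17a, Il6 and Nfkbia among them. Il1b and Il1r1 were thus each 1 of 23 in their comparisons. Between KO and WT 2.18% of all rows passed at 6 h and 0.374% in the average over the 3 times. Against 0 h in KO 4.98% passed at 6 h and 9.56% at 24 h, and 10.8% passed in the average over the genotypes.

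Of 20 interferon-inducible genes 17 were measured. Irf1, a transcription factor of the interferon response, fell in KO at 6 h, as Cxcl10 did. It stood at -0.011, -0.48 and -0.84 at 6 h against 0.35, 1.06 and 1.10 at 0 h, and fell by 1.28 (SE 0.301, adjusted p = 0.0269). Rsad2 went the other way, with a rise of 0.27 (adjusted p = 0.039). No other of the 17 passed there, beside 4.98% of all rows. Of the 17, 8 lay higher in KO at 6 h than at 0 h (median -0.087), beside 56.6% of all rows (median 0.018). Between KO and WT none of the 17 passed, and 12 of 17 lay higher in KO at 0 h (median 0.21), 11 of 17 at 6 h (median 0.060) and 15 of 17 at 24 h (median 0.30). Over all rows 48.5%, 52.5% and 49.7% lay higher at these times, with medians of -0.0034, 0.0065 and -0.00060.

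All 11 chemokine-processing proteases were measured. Adam10 and Adam17, sheddases that cut membrane proteins (Adam10 releases Cxcl16), fell in KO at 24 h by 0.49 (adjusted p = 0.0193) and 0.58 (adjusted p = 0.0182). Adam17 stood at -0.55, -0.25 and -0.53 there, against 0.060, 0.20 and 0.15 at 0 h. In KO at 6 h Ctss, a cysteine protease of antigen-presenting cells, rose by 0.81 (adjusted p = 0.0361) and Mmp2, a gelatinase, fell by 0.45 (adjusted p = 0.0361), and Mmp2 rose by 0.64 between 6 h and 24 h (adjusted p = 0.0183). Both Adam genes also fell in the average over the genotypes, beside 10.8% of all rows. In KO 2 of 11 proteases passed at 24 h against 0 h, beside 9.56% of all rows (6.47% lower). At 6 h against 0 h in KO 1 passed as higher and 1 as lower, beside 4.98% of all rows. Between 24 h and 6 h in KO 1 passed, beside 1.24%.

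These calls on single genes of the pathway lists depend on few arrays. Leaving out 1 array at a time ended each of the calls named above for genes of the 5 pathway lists at least once, except those of Ccl9 and Adam10 averaged over the genotypes. The highest adjusted p in such a repeat was 0.133 for Il1b at 6 h between KO and WT (without WT replicate 3), 0.109 for Irf1 (without KO replicate 3 at 0 h), 0.128 for Ccr4 at 6 h (without KO replicate 2) and 0.0726 for Adam17 (without KO replicate 1 at 24 h). In WT no gene of the 5 lists passed at 6 h or 24 h.

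**Figure D5:**
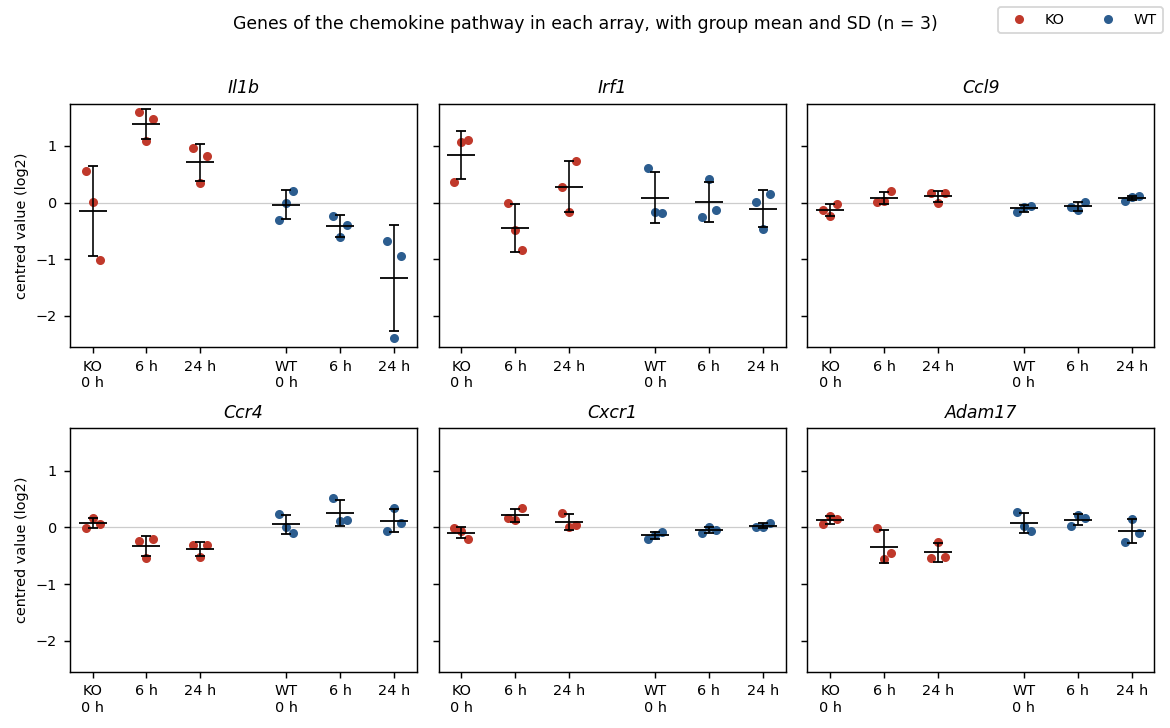
Centred log2 value (vertical axis) of Il1b, Irf1, Ccl9, Ccr4, Cxcr1 and Adam17 in each array, as points, for KO and WT at 0, 6 and 24 h, with the group mean and SD (n = 3). Il1b lies above every WT array in the 3 KO arrays at 6 h, and Irf1 is lower in KO at 6 h than at 0 h.

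Likeness was searched among genes outside the members. Symbols that start with Gm and a digit, LOC, Mir, n-, Olfr or Vmn, or end in Rik, were skipped. Of the genes left, those most like each member had the smallest root mean square difference over the 18 arrays, for the 6 members whose group means span at least 0.5 log2. They were Fscn1 (0.21 log2), Fabp5 (0.21) and Degs1 (0.22) for Cxcl1, and Irf7 (0.17), Tubb2a (0.20) and Nubp1 (0.22) for Cxcl2. Cxcl9 lay nearest to Parp14 (0.24), Ifitm6 (0.26) and Atr (0.26), and Cxcl10 to H2-Q5, Slc9a8 and Bicral (0.20 each). Cxcl14 lay nearest to Atf7 (0.20), Zfp607a (0.21) and Npc1 (0.22), and Ccl2 to Ifitm2 (0.20), Slc10a6 (0.21) and Agpat2 (0.21). Apart from the pair Cxcl9 and Cxcl10, the nearest other member was farther off, at 0.31 for Cxcl2 with Ccl20, 0.32 for Ccl2 with Ccl20, 0.33 for Cxcl1 with Ccl2 and 0.35 for Cxcl14 with Cxcl12.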

How the data were processed

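RNA of 18 mouse epidermal sheets was measured on Affymetrix arrays, and samples were grouped by their titles (6 groups of 3). The authors deposited 1 table of 33793 rows with 0 columns of other samples. Its log2 values run from -6.40 to 4.30, per the deposited numbers themselves, with each row centred on its median, and a natural log cannot be told apart; the sources used here do not state the authors' normalization or software. Array medians were -0.0187 to 0.0107. Without levels, no filter on dim rows was possible, and the number of arrays limits the precision. No 2 arrays correlated above 0.627. The design text counts 3 littermates per genotype and time, and each array was taken as 1 animal; p-values measure the spread between these animals.

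Probe tables gave 23521 rows 1 gene, 1814 rows several and 8458 none; the 23521 were tested. A limma 3.58.1 model (R 4.3.3) with a mean per group (12 residual and 2.765 prior degrees of freedom) gave moderated 2-sided tests of 12 planned contrasts and 1 added after the data were seen, with p-values adjusted by Benjamini-Hochberg over all rows. The pipeline was tested on simulated data. The text names all members, genes of the 5 pathway lists that passed, and the 3 genes most like a member; the marker genes named were chosen after their values were seen. Of 167 genes in 5 pathway and 8 marker lists, 157 were measured, 3 through older symbols. The members and lists were chosen with earlier results of these data known. Alternatives were a repeated quantile normalization, array centring, all rows, limma's trend, robust and array-weight options, the groups alone, the replicate number or the label's number as a block, each number class alone, and leaving out each array. Same-numbered replicates did not deviate together on the median (45 pairs, median correlation of residuals -0.024, against 0.011 for 90 other pairs). Single same-numbered pairs ran from -0.46 to 0.25, and a median cannot exclude a weak pairing. The labels do not say what a replicate number marks, and the main tests used no pairing.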

Additional observations from a re-analysis of the deposited data

How the results depend on the processing

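The number of members that passed moved under these alternatives, and no cause was tested. For 24 h against 0 h in KO (2 members) it was 4 with array weights, with the groups compared alone and among arrays with numbers starting with 3, and 2 to 3 with 1 array left out. For 6 h against 0 h in KO (1 member) it was 2 with array weights, 2 with the groups alone, 0 among numbers starting with 2, 1 among those starting with 3 (Ccl20, in place of Cxcl10) and 0 to 2 with 1 array left out. For the 6 h response, KO minus WT (0 members), it was 2 with array weights, 1 among numbers starting with 2 and 0 to 2 with 1 array left out. In WT at 24 h (0 members) it was 1, Ccl2, among numbers starting with 3 (1.01, adjusted p = 0.0343), against a single WT array at 0 h; between 24 h and 6 h in KO (0 members) it was 0 to 1 with 1 array left out. Averaged over the genotypes (3 members) it was 5 among numbers starting with 3 and 1 to 4 with 1 array left out. Only numbers starting with 3 occur at 24 h, and each class leaves some groups with 1 array. One difference changed sign, the Cxcl10 6 h response, at 0.0017 among numbers starting with 3, out of 33 differences with an unadjusted p under 0.05; of the 84 others, 51 changed sign somewhere.

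Cxcl1 in KO at 24 h passed under all 16 alternatives (1.04 to 1.20, adjusted p = 0.00146 to 0.022). Cxcl14 in KO at 24 h passed under 15 of 16 and Cxcl10 in KO at 6 h under 10 of 17. The replicate block gave 3 members in KO at 24 h, 1 in KO at 6 h, 3 in the average over the genotypes and 0 elsewhere. Counts over the whole table moved more. Against 0 h in KO, 2249 array rows passed at 24 h (1029 to 3070 over the alternatives) and 1172 at 6 h (1 to 1856), and 292 passed between 24 h and 6 h (1 to 842). In WT these were 7 (0 to 390), 0 (0 to 6) and 0 (0 to 19). Between KO and WT 23 passed at 0 h (0 to 188), 513 at 6 h (0 to 1660), 4 at 24 h (1 to 12) and 88 in the average (3 to 322). The 6 h response gave 172 (0 to 864), the 24 h response 0 (0 to 32) and the 24 h change averaged over the genotypes 2545 (1715 to 3495). The gene's other rows were not tried as an alternative, since each member has 1 row.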
